A study of Equus caballus with 22 samples.

Results

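The transcripts described here encode 3 subunits of the machinery that removes proteins tagged with ubiquitin: COPS9 and COPS7A of the COP9 signalosome, and PSMD4 of the proteasome. They were measured in mare endometrium, the mucosa of the uterus, in early pregnancy. Members were all array probes whose accession is a horse RefSeq transcript of one of these genes, which gave 6 of 43603 probes. COPS9 was read by 4 probes, called a to d here (A_69_P102491, A_69_P102492, A_69_P102493 and A_69_P102494), all designed to transcript XM_001497339. COPS7A was read by the single probe A_69_P102301 (XM_001496881) and PSMD4 by the single probe A_69_P075846 (NM_001142400). Each of these 2 accessions stands in only 1 of the 2 versions of the array annotation, and the other version gives the PSMD4 probe an Ensembl transcript name and the COPS7A probe only its own name. The 3 genes are among 675 to which the array accessions gave a symbol. All 6 probes were well above background on 22 of 22 arrays and passed the filter on dim probes.

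Ubiquitin is a small protein that is attached to other proteins in chains by a relay of enzymes, and the proteasome is the barrel-shaped protease that takes in and degrades proteins so marked. Cullin ligases, a large family of enzymes at the end of that relay, are active while a related small protein, NEDD8, is attached to them. The COP9 signalosome removes NEDD8 and so sets how much of the ligase pool is active. COPS9 is its smallest subunit, COPS7A is a scaffold subunit with a close relative, COPS7B, that can take its place, and PSMD4 is a receptor in the proteasome's regulatory cap that holds ubiquitin chains. Estrogen and progesterone receptors, on which the endometrium's cycle depends, are among the proteins degraded by this route.

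The samples were biopsies of warmblood mares. The pregnant groups were taken at day 12 from 6 mares and at day 8 from 5 mares, once the embryo was out of the uterus. The control groups were taken from the same mares at the same stage when not pregnant. The labels name no drug, transgene or other agent. Each sample is a biopsy of mixed tissue on its own array, so fewer cells of a type and less RNA per cell cannot be told apart. Levels are log2 intensities relative to the array's 75th percentile, and levels of different probes are not compared.

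The arrays had 74.2% to 92.9% of spots well above background and a 75th percentile of 577 to 1863 intensity units. Both arrays of a mare at a day shared 1 slide. Day 12 took up 4 slides over 3 scan days and day 8 another 3 slides, with none in common. A difference between days and one between slides, scan days or scanner software versions therefore cannot be told apart. Of 44 cell type markers listed, 13 had a tested probe, and 12 of these were well above background on all 22 arrays. Among them were the epithelial splicing factor ESRP1, the estrogen receptor ESR1 and the stromal matrix genes DCN and LUM, as the tissue label has it, while the keratin genes on the list had no tested probe under a symbol.

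The 3 genes were picked with earlier results of these data known. COPS9 had been picked from its pregnancy change at day 8, and COPS7A and PSMD4 from the difference between control samples of the days. Each gene was therefore tested only where the samples compared were on other arrays. For COPS9 these were pregnant and control samples at day 12, and for COPS7A and PSMD4 pregnant samples of the days. The COPS9 test is not fully separate from the choice, because its SE and p-value use an estimate of the spread shared with the day 8 arrays. All other differences are given as an estimate with its standard error (SE) and no test. A test is limma's, two-sided, with the p-value adjusted by the Benjamini-Hochberg method over all probes and a threshold of 0.05.

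COPS9 was lower in pregnant than in control endometrium at day 12 in 6 of 6 mares by each of its 4 probes, by 1.25- to 1.30-fold, and 0 of 4 probes passed the threshold. By probe a, the 6 control samples had a lowest level of 3.31, a median of 3.43 and a highest of 3.68. The 6 pregnant samples had a lowest level of 2.80, a median of 3.08 and a highest of 3.33. The groups overlapped only through the pregnant sample of mare 5, which at 3.33 stood just above the control samples of mares 1 (3.31) and 4 (3.33). The change within mare ran from -0.66 in mare 2 and -0.53 in mare 4 to -0.11 in mare 5.

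In limma's fit this was a change of -0.37 ± 0.10 log2 (SE, n = 6 mares, adjusted p = 0.140) by probe a. Probe b gave -0.38 ± 0.09 (limma, adjusted p = 0.121), probe c -0.37 ± 0.10 (limma, adjusted p = 0.141) and probe d -0.32 ± 0.10 (limma, adjusted p = 0.218). Without adjustment, 4 of 4 probes had a limma p under 0.05, as had 4797 of all 38456 probes. Of 38456 probes tested in this comparison, 0.265% passed the threshold in either direction and 0.0546% were lower. A level lower in every mare was seen in 3.71% of all probes, and the 4 COPS9 probes read 1 transcript, so they are not 4 separate observations.

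At day 8, COPS9 was higher in pregnant endometrium. These values chose the gene and are a description. By probe a, the control samples of mares 1, 2, 4, 5 and 6 had levels of 3.39, 3.34, 3.26, 3.50 and 3.33. The pregnant samples of the same mares had levels of 3.65, 3.71, 4.02, 3.61 and 3.61. All 5 pregnant samples lay above all 5 control samples, and mare 4 had both the lowest control and the highest pregnant level. Such day 8 groups without overlap, pregnant higher, were seen in 0.144% of all probes, from which nothing is read because these values chose the gene.

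The change at day 8 was 0.36 ± 0.11 log2 (SE, n = 5 mares) by probe a, and 0.38 ± 0.10, 0.34 ± 0.11 and 0.32 ± 0.11 by probes b, c and d. It was positive in 5 of 5 mares by probes a, b and c and in 4 of 5 by probe d, which gave -0.04 in mare 5. Mare 4 had the largest change by every probe, from 0.75 by probe d to 0.79 by probe b. Without mare number 4 the change by probe a was 0.25. No probe of the array passed the threshold at day 8 (0 of 38452 by limma, with 2243 at an unadjusted p under 0.05), and 4.02% of all probes were higher in every mare.

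COPS9 therefore lay above its control in day 8 pregnancy and below it in day 12 pregnancy, and the days used different control samples. The pregnancy change at day 12 minus that at day 8 was -0.73 ± 0.14 log2 by probe a, with -0.76 ± 0.14, -0.71 ± 0.14 and -0.64 ± 0.15 by probes b to d. Of all probes, 153 of 38103 (0.402%) were lower in every mare at day 12 and higher in every mare at day 8. The day 8 part of this condition rests on the values that chose the gene, so nothing is read from that share. Among the 1520 probes higher in every mare at day 8, 10.1% were lower in every mare at day 12, beside 3.71% of all probes.

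**Figure D1:**
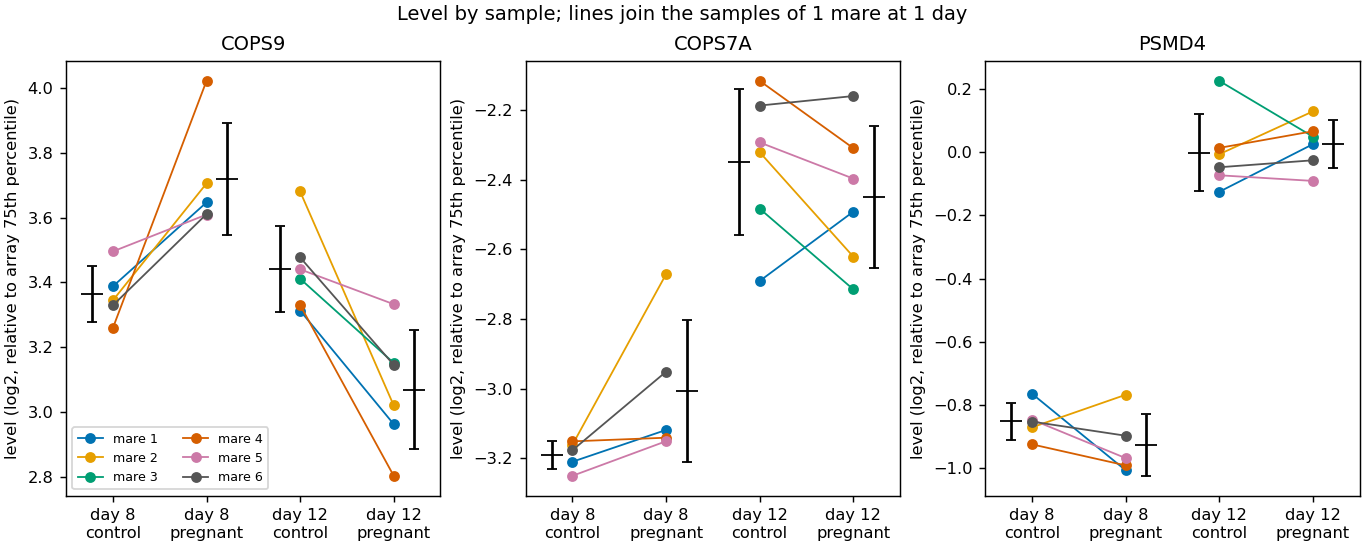
Level of COPS9 (probe a), COPS7A and PSMD4 in each sample (log2, relative to the array's 75th percentile), with lines joining the control and pregnant sample of 1 mare at 1 day and black bars giving the mean and SD of 5 (day 8) or 6 (day 12) samples. All COPS9 lines rise at day 8 and fall at day 12, while PSMD4 is near 0.00 in both day 12 groups and below -0.76 in every day 8 sample.

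Group means by probe a were 3.07 ± 0.18 (SD, n = 6) in day 12 pregnant, 3.36 ± 0.09 (SD, n = 5) in day 8 control, 3.44 ± 0.13 (SD, n = 6) in day 12 control and 3.72 ± 0.17 (SD, n = 5) in day 8 pregnant samples. In that order the control groups of the days differed by 0.08, less than the larger SD of either. The other neighbours differed by 0.29 and 0.28, more than the larger SD, and their ranges overlapped. By probe d the order was different, with day 12 control below day 8 control.

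The 4 COPS9 probes gave similar estimates of the change with pregnancy. Over the 11 within-mare changes the correlation between any pair of probes was 0.960 to 0.997 (Pearson, a description over 11 changes that share arrays between probes). Both days were pooled there, so the opposite signs of the days, with the day 8 values that chose the gene, are part of this correlation. For levels with each group's mean subtracted it was 0.845 to 0.939 over the 22 arrays. In mare 4 at day 12 the change was -0.53 by probe a and -0.25 by probe d. The spread from the lowest to the highest probe estimate was 0.06 log2 at day 12 and 0.07 at day 8. Of 348 accessions with 4 probes, the median spread was 0.07 at day 12 and 0.08 at day 8.

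**Figure D2:**
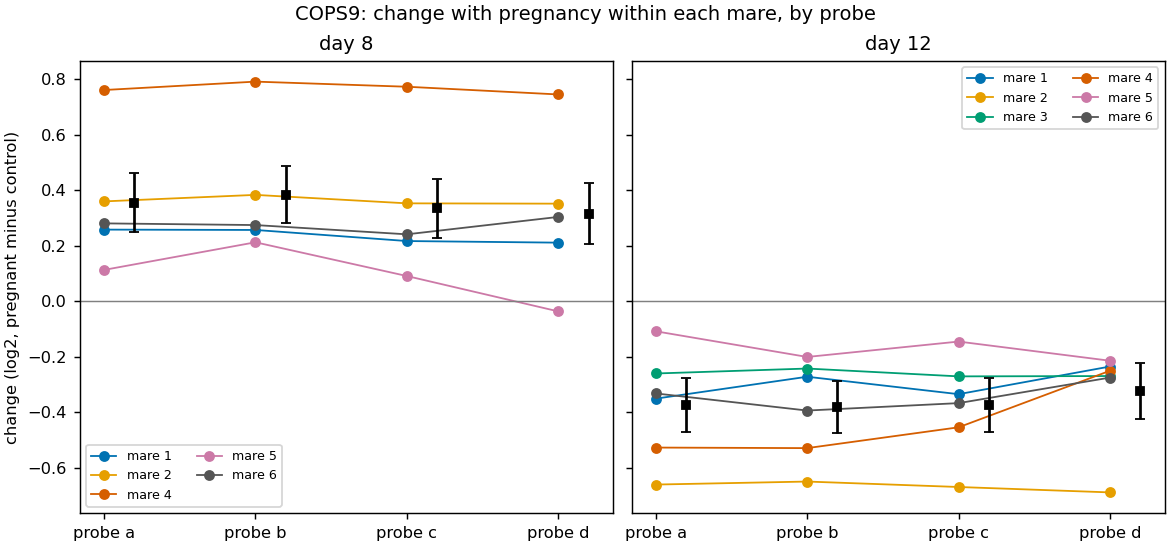
Change of COPS9 with pregnancy (log2, pregnant minus control) by each of its 4 probes, with 1 coloured line per mare and black squares with bars for limma's estimate and 1 SE. Mare 4 stands highest at day 8 and mare 2 lowest at day 12 by all 4 probes, and only mare 5 by probe d crosses 0 at day 8.

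The same probes differed on the comparison between days. In control samples, day 12 minus day 8 was 0.08 ± 0.12 by probe a, 0.29 ± 0.12 by probe b, 0.16 ± 0.12 by probe c and -0.15 ± 0.13 by probe d, so the sign depended on the probe. In pregnant samples all 4 probes were lower at day 12, by -0.65 ± 0.14, -0.48 ± 0.13, -0.55 ± 0.13 and -0.78 ± 0.13 for probes a to d. The pregnant groups of the days did not overlap by any of the 4 probes, as was so, with day 12 lower, for 8.25% of all probes. Nothing is read from that share, because the day 8 pregnant samples are among the values that chose COPS9. The 4 probes also read 1 transcript. The spread between probe estimates was 0.44 in control and 0.31 in pregnant samples, where accessions with 4 probes had median spreads of 0.27 and 0.27. With quantile normalisation in place of the 75th percentile, probe a gave 0.25 in control and -0.43 in pregnant samples. The day difference of COPS9 in control samples thus has no settled direction here, while its pregnancy changes kept their sign under each scaling run.

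COPS7A, a scaffold subunit of the signalosome, was higher at day 12 than at day 8 in pregnant samples by 1.47-fold. The day 8 pregnant samples of mares 1, 2, 4, 5 and 6 had levels of -3.12, -2.67, -3.14, -3.15 and -2.95. The 6 day 12 pregnant samples had a lowest level of -2.71, a median of -2.44 and a highest of -2.16. The groups overlapped through mare 2 at day 8 and mare 3 at day 12.

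The difference was 0.56 ± 0.15 log2 (SE, 6 against 5 samples), and limma gave an adjusted p of 0.0184. In this comparison 24.3% of 38454 probes passed the threshold in either direction and 11.1% were higher at day 12, so a call here is common. The 5 pregnant mares of day 8 and the 6 of day 12 also gave the control samples that chose COPS7A, on the same slides. The COPS7A difference lost the threshold without mare number 4 (0.50, limma adjusted p = 0.0787), 5 (0.51, limma adjusted p = 0.0784) or 6 (0.51, limma adjusted p = 0.0644). It also lost it with quantile normalisation (0.45, limma adjusted p = 0.0532) and when scan day was modelled as a random block (0.55, limma adjusted p = 0.0794).

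In control samples, the values that chose COPS7A, the day 8 levels were -3.21, -3.16, -3.15, -3.25 and -3.18 in mares 1, 2, 4, 5 and 6. At day 12 the lowest was -2.69, the median -2.31 and the highest -2.12. Every day 12 control sample lay above every day 8 control sample, and the difference was 0.84 ± 0.13 log2, with 7.1% of 38455 probes called in that comparison and 2.48% higher at day 12. Control groups of the days that did not overlap, with day 12 higher, were seen in 2.79% of all probes. Group means were -3.19 ± 0.04 (SD, n = 5) and -2.35 ± 0.21 (SD, n = 6) in control, and -3.01 ± 0.20 (SD, n = 5) and -2.45 ± 0.20 (SD, n = 6) in pregnant samples, for day 8 and day 12 each.

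The COPS7A changes with pregnancy within a day were smaller than its differences between the days. At day 8 the change was 0.18 ± 0.10 log2 (SE, n = 5 mares), positive in 5 of 5 mares but from 0.01 in mare 4 to 0.49 in mare 2. Of all probes, 4.02% were higher in every mare at day 8. The day 8 groups barely missed overlap, with a lowest pregnant level of -3.1506 and a highest control level of -3.1510. Day 8 groups without overlap, pregnant higher, were seen in 0.144% of all probes, from which nothing is read because these control samples chose the gene. At day 12 the change was -0.10 ± 0.09 (SE, n = 6 mares), negative in 4 of 6 mares and from -0.30 in mare 2 to 0.20 in mare 1. Neither exceeded the larger SD of its groups, and both use the control samples that chose the gene, so they carry no test. Without mare number 2 the change was 0.11 at day 8 and -0.06 at day 12, and without mare number 1 it was -0.16 at day 12. The probe's intensities were 62.4 to 331 units before scaling.

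PSMD4, a ubiquitin receptor of the proteasome cap, was 1.93-fold higher at day 12 than at day 8 in pregnant samples, and the groups did not overlap. The day 8 pregnant samples of mares 1, 2, 4, 5 and 6 had levels of -1.01, -0.77, -0.99, -0.97 and -0.90. The 6 day 12 pregnant samples had a lowest level of -0.09, a median of 0.04 and a highest of 0.13. The lowest day 12 sample lay far above the highest day 8 sample.

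In limma's fit the difference was 0.95 ± 0.11 log2 (SE, 6 against 5 samples, adjusted p = 0.000488), and its p-value ranked 127 among 38454 probes. Of all probes, 24.3% passed the threshold here and 11.1% were higher at day 12. The same mares, on the same slides, gave the control samples that chose PSMD4, so the test is not independent of that choice. Groups that did not overlap, with day 12 higher, were seen in 5.37% of all probes. The PSMD4 call held without each mare number in turn, at 0.93 to 0.97, with slide or scan day as a random block and with quantile normalisation. It was lost with normexp background correction (0.80, limma adjusted p = 0.0548) and in the authors' deposited table (1.06, limma adjusted p = 0.166). By slide, mean levels in pregnant samples were -0.09 to 0.13 on the 4 day 12 slides and -0.99 to -0.89 on the 3 day 8 slides.

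The control samples, whose values chose PSMD4, had day 8 levels of -0.76, -0.87, -0.92, -0.85 and -0.85 in mares 1, 2, 4, 5 and 6. At day 12 the lowest was -0.13, the median -0.03 and the highest 0.23. The difference was 0.85 ± 0.12 log2. These groups did not overlap, as was so, with day 12 higher, for 2.79% of all probes, from which nothing is read because these values chose the gene. Means were -0.85 ± 0.06 (SD, n = 5) and 0.00 ± 0.12 (SD, n = 6) in control and -0.93 ± 0.10 (SD, n = 5) and 0.03 ± 0.08 (SD, n = 6) in pregnant samples, for day 8 and day 12.

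The PSMD4 level in pregnant samples was close to that in control samples at both days. The change was 0.03 ± 0.07 log2 (SE, n = 6 mares) at day 12, from -0.18 in mare 3 to 0.15 in mare 1. It was -0.07 ± 0.08 (SE, n = 5 mares) at day 8, from -0.24 in mare 1 to 0.10 in mare 2. The sign was shared by 4 of 6 and 4 of 5 mares, and both changes were smaller than the larger SD of their groups.

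**Figure D3:**
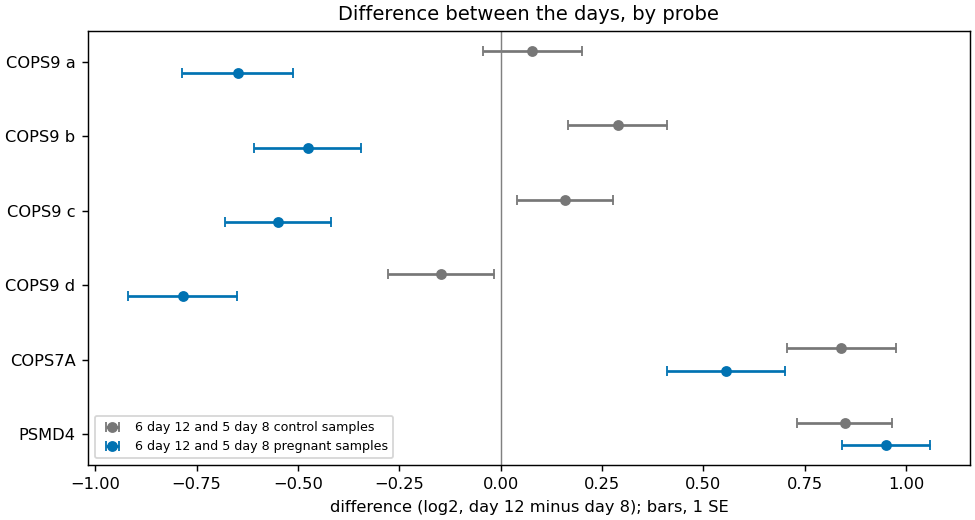
Difference between the days (log2, day 12 minus day 8) by each of the 6 probes, with limma's estimate and 1 SE, in 6 against 5 control samples (grey) and 6 against 5 pregnant samples (blue). COPS7A and PSMD4 lie above 0 in both, while the COPS9 probes lie below 0 in pregnant samples and on both sides of it in control samples.

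The genes had low correlations with each other within groups. Over the 22 arrays COPS7A and PSMD4 levels had a correlation of 0.87 (Pearson), and this was 0.12 once each group's mean was subtracted. COPS9 had correlations of -0.57 with PSMD4 and -0.36 with COPS7A, or -0.19 and -0.03 within groups. These are descriptions over arrays that share the day, the slides and the scaling.

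The named genes whose levels followed each member most closely within groups were found among 599 genes over the 22 arrays. For COPS9 they were CYB5A, which encodes cytochrome b5 (Pearson r = 0.67), SEC22C, of transport between endoplasmic reticulum and Golgi (0.63), and UBE2S, a ubiquitin-conjugating enzyme that extends chains for the anaphase-promoting complex (0.62). For COPS7A they were CALU, the calcium-binding protein calumenin (0.82), MHCX1 (0.77) and NXF1, the mRNA export receptor (0.73). For PSMD4 they were PYGL, liver glycogen phosphorylase (0.67), FRZB, a secreted Wnt antagonist (0.61), and IL4R, the interleukin 4 receptor (0.59).

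Other genes of the route were sparsely named on this array. Of 165 genes in 6 lists, 9 had a tested probe under a symbol. They were 2 of 10 signalosome subunits, 1 of 19 proteasome core subunits, 1 of 33 cap, activator and assembly genes, 0 of 13 subunits of translation initiation factor eIF3, whose architecture resembles that of the signalosome and the cap, 1 of 33 genes of cullin ligases and neddylation, and 4 of 57 genes of ubiquitin, its enzymes and related proteins. The 6 that are no members are too few to describe their complexes.

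Of those 6, limma called 1 higher and 2 lower at day 12 in pregnant samples, against 24.3% of all probes. The median difference was 0.12, beside -0.03 over all probes. PSMB2, a subunit of the proteasome's core, fell from a mean level of 2.36 to 1.73, by 0.63 ± 0.12 log2 (SE, limma adjusted p = 0.00549). UBE2S fell from 2.46 to 1.60, by 0.86 ± 0.16 (SE, limma adjusted p = 0.00377). UCHL1, a ubiquitin hydrolase best known from neurons, rose from -4.98 to -3.85, by 1.13 ± 0.37 (SE, limma adjusted p = 0.0450), a call that held under only 3 of 16 alternatives. UCHL1 stands here by the brightest of its 5 tested probes.

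The core subunit PSMB2 and the cap subunit PSMD4 thus differed between days in opposite directions in pregnant samples. UBE2B, a conjugating enzyme of DNA repair, differed by 0.37 ± 0.16 (limma adjusted p = 0.108). The ubiquitin gene UBB, by the brightest of its 3 tested probes, differed by 0.15 ± 0.16 (limma adjusted p = 0.508), which became 0.77 (limma adjusted p = 0.00331) with quantile normalisation. DCUN1D3, which helps attach NEDD8 to cullins, differed by 0.08 ± 0.13 (limma adjusted p = 0.674), with a sign that turned to -0.021 with quantile normalisation.

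In control samples, limma called 0 of these 6 genes between days, with 2 at an unadjusted p under 0.05. PSMB2 differed by -0.47 ± 0.14 (limma adjusted p = 0.0638) and UBE2S by -0.52 ± 0.17 (limma adjusted p = 0.0882). Pregnancy changes also passed for 0 of 6 at either day, with 1 of 6 at an unadjusted limma p under 0.05 at day 12 and 0 at day 8. That one was UBE2S at day 12, with -0.30 ± 0.11 (limma adjusted p = 0.281).

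**Figure D4:**
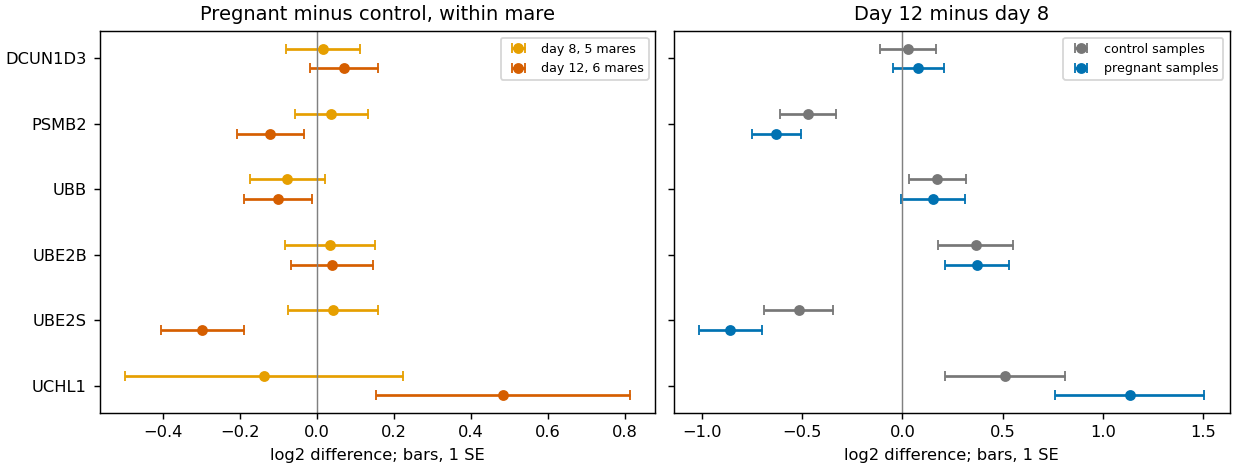
The 6 other named genes of the ubiquitin and proteasome lists: pregnancy change within mare at day 8 and day 12 (left) and day 12 minus day 8 in control and pregnant samples (right), as log2 differences with 1 SE. PSMB2 and UBE2S lie below 0 between days and UCHL1 above, with the widest error.

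Some markers of cell types differed between days as well. In pregnant samples, 3 of the 13 measured markers were higher at day 12 and 3 were lower in limma's fit. Of all probes, 11.1% were called higher and 13.1% lower in this comparison. The higher ones were TAGLN of smooth muscle (0.84, adjusted p = 0.0462), PECAM1 of endothelium (0.92, adjusted p = 0.00589) and CD14 of macrophages (1.01, adjusted p = 0.00183). CD14 was the only one of 4 measured macrophage and dendritic cell markers with a higher estimate, and the list's median was -0.20. The lower ones were ESR1 (-0.94, adjusted p = 0.00632), LUM (-0.63, adjusted p = 0.0418) and ITGA2B of platelets (-0.84, adjusted p = 0.00283). PECAM1, ESR1 and LUM stand by the brightest of 3, 6 and 6 tested probes. A mean log2 level was taken over the 9 measured of 26 markers of muscle, vessels, immune cells and blood. It ran from -1.33 to -0.61 (median -1.01) in day 8 pregnant and from -1.11 to -0.60 (median -0.71) in day 12 pregnant samples. At day 12, pregnancy changes passed the threshold for 0 of 13 markers by limma. An unadjusted p under 0.05 was seen for 4 of them, as for 4797 of all 38456 probes: TAGLN (0.90), PECAM1 (0.44), CD14 (0.51) and ITGA2B (-0.29). The mean over the 9 markers of other cell types was -1.18 to -0.75 (median -1.03) in day 12 control samples. Its median was thus higher in the day 12 pregnant group, where COPS9 was lower. Each of the 13 was well above background on at least 21 arrays. The TAGLN and LUM calls between days held under 4 of 16 alternatives each. The part of these cell types in the COPS9, COPS7A and PSMD4 differences was not tested.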

How the data were processed

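RNA of 22 endometrial biopsies was labelled with Cy3 and hybridised to Agilent arrays of horse probes in 1 colour, according to the protocols in the labels. The authors deposited scanner output with spot intensity values on a linear scale, made with Agilent Feature Extraction (10.5.1.1 per the submitters' processing notes; the file headers of the day 8 arrays name a later version). The authors' deposited value table holds values read as log2, whose scaling and centring no source used here gives.

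Processed intensities were put on the log2 scale and the array's 75th percentile was subtracted, outlier spots were left out, and spots of a probe were averaged. Probes well above background on at least 5 of 22 arrays were tested with limma 3.58.1 in R 4.3.3. Pregnancy changes came from 1 fit of all arrays with the mare within a day as a block, so both days share an estimate of the spread. Days were compared in separate fits of the 11 pregnant and 11 control arrays, which lie on the same slides. The fits were tested on simulated data. The pairing comes from the labels; after subtraction of group means, the arrays of a mare correlated at 0.289 to 0.725 (day 12) and 0.321 to 0.817 (day 8).

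RefSeq accessions of the horse assembly TB-T2T gave 1 symbol to 1394 probes, several to 1 and none to 42208. No coordinates are printed because the array's build is not given in the sources used here. The brightest probe on average represents a gene with several. The named genes are the 3 members, the 3 genes most correlated with each, and list genes with the smallest p-values or past the threshold. Members and lists were chosen with earlier results of these data known. Tests of members were held to comparisons between samples that did not choose them, which is stricter than first planned. The spread used in the COPS9 test still draws on the day 8 arrays. Precision is limited by the number of arrays. Alternatives were background correction by normexp (offset 50, on median spot signals), quantile normalisation, filters on dim probes, the authors' table, blocks, and leaving out each mare number.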

Additional observations from a re-analysis of the deposited data

Results flagged for a closer look

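Of 36 groups of levels or within-mare changes of the 6 probes, 6 held a sample far from the others by Dixon's criterion, all of them COPS9 groups. The criterion flags about 1 in 20 separate groups by chance, but these groups share arrays and a transcript. Most are day 8 levels, which chose the gene, so the count is not set against that rate. In 4 of them it was the day 8 pregnant sample of mare 4, with COPS9 levels of 4.02, 3.84, 3.22 and 2.97 by probes a to d, so the same sample was read by 4 probes of 1 transcript. The nearest other sample had 3.71 by probe a. By probe d, the day 8 control sample of mare 5, at 2.52, also lay far above the other controls, the nearest of which had 2.27. The COPS9 change of mare 2 at day 12 by probe d, -0.69, lay far below that of the nearest mare, -0.27. By probes a, b and c the pregnancy change of COPS9 was positive in every mare at day 8 and negative in every mare at day 12. The changes differed by -0.73, -0.76 and -0.71 log2, and this difference was not tested, because the day 8 values chose the gene.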

How the results depend on the processing

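Of 462 values of 30 member results under alternatives, 440 moved by less than the spread between samples or kept their call. COPS9 at day 12 by probe a was -0.58 to -0.35 over 9 alternatives, all negative, with 0 of 15 settings past the threshold (limma adjusted p = 0.0770 to 0.498). The PSMD4 difference in pregnant samples passed under 14 of 16 alternatives, the exceptions being normexp (0.80, adjusted p = 0.0548) and the authors' table (1.06, adjusted p = 0.166). The COPS7A difference in pregnant samples passed under 7 of 16: it was 0.82 (adjusted p = 0.327) with normexp, 0.45 with quantile normalisation, 0.56 (adjusted p = 0.661) with the authors' table, 0.36 (adjusted p = 0.0683) with that table centred on each array's median, 0.55 with scan day as a random block, and 0.50 to 0.68 when each mare number was left out.

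Normexp, distorted by 18 spots with a local background above 100 units on the day 12 pregnant array of mare 1, shifted the median pregnancy change over all probes from -0.02 to 0.34 at day 12. It gave COPS7A a pregnancy change of 0.28 at day 12 and a difference of its pregnancy changes, day 12 minus day 8, of 0.17. With those backgrounds capped, these COPS7A values were -0.07 and -0.17, negative as they were without normexp. Normexp gave PSMD4 a control day difference of 0.69, with or without the cap. The cap, like the centred table, was an alternative added after seeing the data. Quantile normalisation gave COPS9 day differences of 0.25 in control and -0.43 in pregnant samples by probe a. The centred table moved the median of all probes between pregnant samples of the days from -0.03 to -0.17, and its calls were 2277 higher and 7000 lower, against 4280 and 5052 before. Of the other genes, DCUN1D3 turned to -0.021 with quantile normalisation and to -0.014 with the centred table, and the pregnancy change of UBE2B at day 12 ran from -0.030 (without mare number 3) to 0.077 when mare numbers were left out.

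The count of probes past the threshold at day 12, 102, became 13 with normexp, 198 with it capped, 218 with a filter on all arrays, 303 and 290 with the authors' table as given and centred, and 22 to 977 when mares were left out (977 without mare 3, 22 without mare 1). For pregnant samples of the days, 9332 became 388, 5627 (capped), 836 (authors' table), 3433 (scan day) and 5478 to 8833 (mares left out). For control samples, 2732 became 1620 with either normexp, 4458 with quantile normalisation, 282 with the authors' table, 772 and 211 with slide and scan day as a random block, and 347 to 2046 with mares left out.

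Without the mare as a replicate block, 41 probes passed at day 12 and COPS9 had -0.37 (limma adjusted p = 0.404). The labels do not say that a mare number marks the same animal at both days, and same-number deviations correlated at -0.153 to 0.342 across days. With that number as a block between days, 5095 probes passed in pregnant and 31 in control samples, and COPS7A had 0.61 (adjusted p = 0.0611), while PSMD4 kept its call.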
